A study of Mus musculus with 9 samples.

Results

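The genes described here are 10 genes of the mTORC1 pathway and its stress-induced inhibitors, measured in the embryonic mouse lens with and without the transcription factor ATF4. They are *Sesn2*, *Ddit4*, *Deptor*, *Mtor*, *Rptor*, *Tsc1*, *Tsc2*, *Rheb*, *Rps6kb1* and *Lamtor1*, chosen by name for their place in the pathway and found by matching their symbols to the 55416 gene identifiers counted. All 10 were found, and all 10 passed the filter on low counts that kept 14903 genes. The series holds 9 RNAseq libraries from the lenses of E16.5 embryos, each made from the pair of lenses of 1 embryo. The *Atf4* null group (4 libraries) is homozygous for the germline allele Atf4 tm1Tow, in which part of the gene was replaced by a neomycin resistance cassette, so every cell of the embryo carries the deletion and not only the lens. The wildtype group (5 libraries) came from littermates of the same heterozygous crosses on a mixed C57Bl/6/129 background, and no embryo received a treatment. Both groups hold both sexes by their X and Y transcripts, with 1 female among the *Atf4* null and 2 among the wildtype embryos.

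mTORC1 is a protein kinase complex on the surface of the lysosome that promotes protein synthesis and cell growth when amino acids, energy and growth factors are plentiful, and holds back autophagy. The small GTPase Rheb switches the kinase on, the TSC1 and TSC2 complex switches Rheb off, and the Rag GTPases with the Ragulator scaffold bring the complex to the lysosome when amino acids are present. ATF4 is translated when amino acids run short, and in other cells it is known to induce *Sesn2* and *Ddit4*, whose products restrain mTORC1. Much of the regulation of mTORC1 is by phosphorylation and location, which a measurement of mRNA does not see. The comparison asks how the mRNA of these genes stood in lenses that grew without ATF4.

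Gene counts ran from 8409779 to 8906996 per wildtype library and from 7440807 to 8696699 per *Atf4* null library. *Atf4* mRNA lay between 119 and 155 CPM (gene counts scaled by library size and TMM factors) in the wildtype libraries and between 0.582 and 10.6 CPM in the *Atf4* null libraries. Summed over a list of 11 lens genes, the level was 57970 to 105800 CPM in wildtype and 44210 to 105900 CPM in *Atf4* null libraries, and the lens fiber gene *Lim2* was listed at 0 in all of them, which was not examined further and is not read as absence of its mRNA. Wildtype replicate 5 stood apart, with 14950 CPM on 10 mesenchyme genes and 4829 CPM on 12 skeletal muscle genes. Among the other libraries, the mesenchyme genes summed to 290.3 to 669.8 CPM in the *Atf4* null and 130.6 to 190 CPM in the wildtype group, without overlap, and the muscle genes to 18.48 to 52.83 and 16.69 to 33.67 CPM. In the same libraries 6 pigment cell genes summed to 43.1 to 110.4 CPM in the null and 20.16 to 42.12 CPM in the wildtype group, also without overlap. Over all 9 libraries, 8 blood cell genes summed to 183.1 to 256.1 and 231 to 742.6 CPM, 8 endothelium genes to 165.5 to 371.1 and 310.7 to 575.7 CPM, and 8 macrophage genes to 66.39 to 103 and 66.12 to 83.8 CPM, in the same order. Counts of calls, and the members it moves most, are therefore also given without wildtype replicate 5. A list of 12 lens epithelium genes summed to 4775 to 5597 CPM in wildtype and to 3041 to 4036 CPM in *Atf4* null libraries, and a list of 11 retina genes to 160.5 to 262.4 and to 292.2 to 724.1 CPM. The 12 lens fiber genes summed to 31540 to 59580 CPM and to 23800 to 56430 CPM. By edgeR's quasi-likelihood test 5 of 12 epithelium genes were lower and 1 higher in the *Atf4* null lens, 5 of 11 tested fiber genes were lower and 5 of 9 tested retina genes were higher, against 3.67% lower and 2.23% higher of all genes, and the part of these cells in the results below was not tested. In whole lenses, fewer cells of a type and less RNA per cell cannot be told apart.

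Because ATF4 is known to bind composite elements of the form TGATGCAA, the DNA around the start of each gene was searched for this run of letters and for the looser form TGATGNAA, on both strands, in the 1000 bases either side of the gene start that GENCODE gives in GRCm39. The exact form lay in 3.92% of 14864 such windows and in the windows of *Sesn2* and *Tsc2*. The looser form, which includes the exact one, lay in 19.5% of the windows and in those of *Sesn2*, *Ddit4* and *Tsc2*. The 6 matches are shown because they are all that the 10 genes hold. Capitals mark the element and each line reads along the strand that carries it.
Sesn2, GRCm39 chr4:132237233-132237262, plus strand: gaggctgcagtTGATGCAAccctagcccta
Sesn2, GRCm39 chr4:132238053-132238082, plus strand: ttagggctgcgTGATGAAAcgggacttcac
Ddit4, GRCm39 chr10:59788689-59788718, minus strand: cctcgcctgaaTGATGAAAccccatatggc
Ddit4, GRCm39 chr10:59788861-59788890, plus strand: cactgggacccTGATGGAAgaaaagaccaa
Ddit4, GRCm39 chr10:59788882-59788911, minus strand: gccagagtgtcTGATGTAAgtttggtcttt
Tsc2, GRCm39 chr17:24853107-24853136, plus strand: gagcactgctaTGATGCAAgtgcctccccg

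The exact match of *Sesn2* lay 564 bases into the gene, within an intron, and the looser one 256 bases upstream of its start. The 3 matches of *Ddit4* lay 215, 387 and 408 bases upstream of the GENCODE start, outside any annotated gene. RefSeq places the start of *Ddit4* 900 bases further downstream, which puts all 3 matches outside a window of 1000 bases around that start. The match of *Tsc2* lay 933 bases upstream of its start, in a coding exon of the neighbouring gene *Nthl1*, and the RefSeq start of *Tsc2* is 591 bases further downstream, which puts the match outside a window of 1000 bases around that start. In the shorter promoters of the RefSeq table (GRCm38.p6, 250 bases before to 50 after the start), which holds 9 of the 10 genes, none had either form, against 0.895% and 3.97% of 32851 promoters. A match describes the letters in the window and is not a binding site.

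None of the 10 genes passed the test between the genotypes. With the quasi-likelihood test of edgeR and p-values adjusted by Benjamini-Hochberg over all genes tested, 0 of 10 had an adjusted p below 0.05, against 5.9% of all genes (2.23% higher and 3.67% lower in the *Atf4* null lens). At an unadjusted p below 0.05 there was 1, *Rptor*, against 19.6% of all genes. edgeR's exactTest also called 0 of 10 with 1 at the unadjusted level, and DESeq2 called 0 of 10 with 2, *Rptor* and *Mtor*. With libraries scaled by their size alone, a setting that moved the median of all genes from 0.00 to 0.13 on the log2 scale, *Rptor* was called. In none of the 10 genes did the libraries of the 2 genotypes separate without overlap, which 10.2% of all genes did. The fitted log2 fold change (*Atf4* null minus wildtype) was above 0 for 3 genes and below 0 for 7, with a median of -0.05 against 0.00 for all genes.

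**Figure D1:**
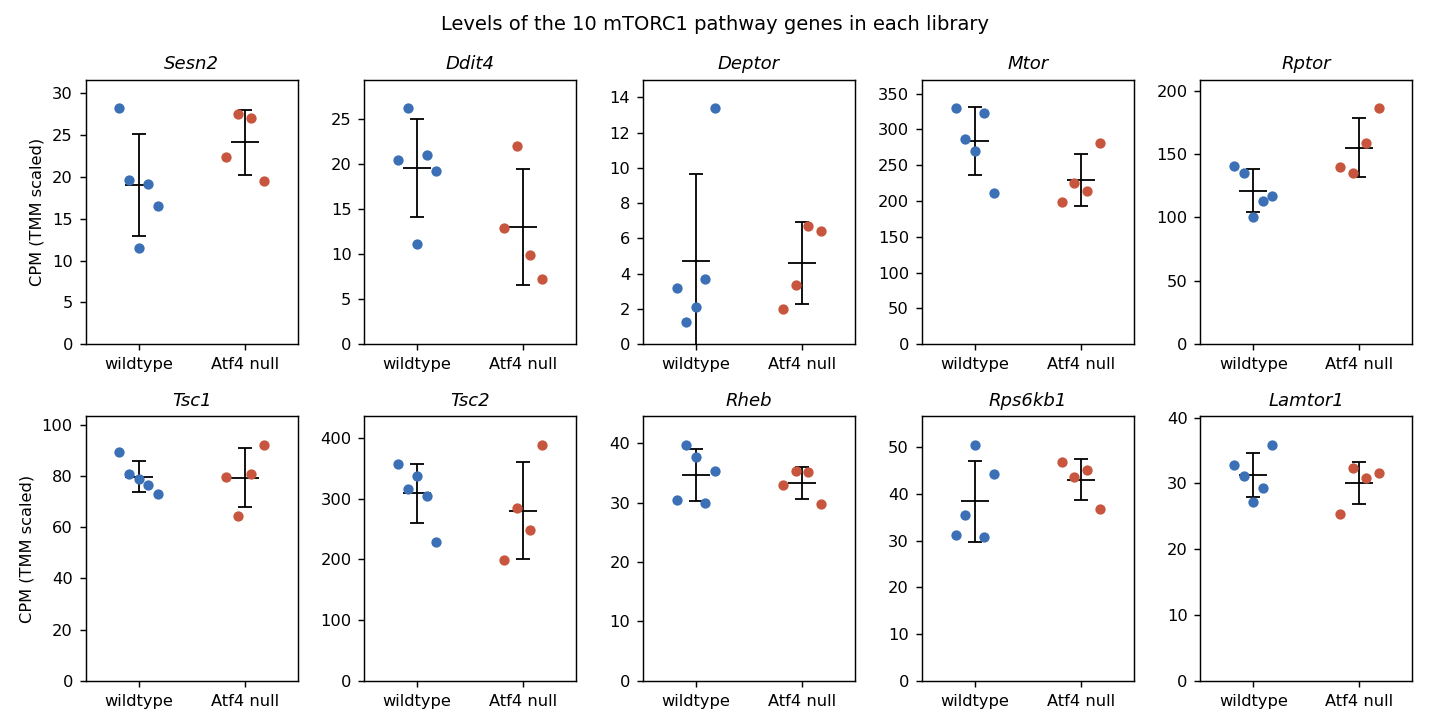
CPM of each of the 10 mTORC1 pathway genes in each library (vertical axis, from 0), wildtype in blue (n = 5) and *Atf4* null in red (n = 4), with the mean and SD in black and the SD of *Deptor* in wildtype clipped at 0. The libraries of the genotypes overlap for every gene, and 1 wildtype library of *Deptor* stands above the rest at 13.4 CPM.

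The 3 inhibitors of mTORC1 among these genes did not pass the test. *Sesn2* (ENSMUSG00000028893, GRCm39 chr4:132219335-132237815, minus strand) encodes Sestrin2, a leucine sensor that binds GATOR2 and so restrains mTORC1. It stood at 28.2, 19.6, 11.5, 19.1 and 16.49 CPM in wildtype replicates 1 to 5 and at 22.4, 27.6, 27.1 and 19.5 CPM in *Atf4* null replicates 1 to 4. The highest library of all was wildtype replicate 1, while the other 4 wildtype libraries lay below null replicates 1 to 3, with null replicate 4 among them, so the groups overlapped. The wildtype mean was 19.0 ± 6.10 CPM (SD, n = 5), and that of the *Atf4* null lens was 24.2 ± 3.87 CPM (SD, n = 4). The log2 fold change was 0.35 with an SE of 0.25, and its 95% interval ran from -0.18 to 0.88 (edgeR quasi-likelihood, adjusted p = 0.497). As a fold of the wildtype level this interval spans 0.882 to 1.84. Leaving out 1 library gave log2 fold changes from 0.21 (without wildtype replicate 3) to 0.53 (without wildtype replicate 1). An exact two-sided permutation test gave p = 0.175.

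*Ddit4* (ENSMUSG00000020108, chr10:59785491-59788492, minus strand) encodes REDD1, a stress-induced protein that acts through the TSC complex to lower mTORC1 activity. Its wildtype libraries stood at 20.4, 26.2, 11.1, 21.0 and 19.2 CPM and its *Atf4* null libraries at 12.9, 21.96, 9.87 and 7.28 CPM. Null replicate 2 lay above 4 of the 5 wildtype libraries and wildtype replicate 3 lay among the nulls, while the other 3 null libraries were below the other 4 wildtype ones. The means were 19.6 ± 5.43 CPM (SD, n = 5) and 13.0 ± 6.397 CPM (SD, n = 4). The log2 fold change of -0.59 (SE 0.33, interval -1.29 to 0.11) was the farthest from 0 among the 10 genes and missed the threshold, with adjusted p = 0.354 by edgeR's quasi-likelihood test and p = 0.119 by the exact permutation test. Leaving out 1 library moved it from -0.97 (without null replicate 2, adjusted p = 0.124 in the same edgeR test) to -0.40 (without null replicate 4, adjusted p = 0.568).

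*Deptor* (ENSMUSG00000022419, chr15:54975710-55122667, plus strand) encodes a subunit that binds mTOR and inhibits it. It lies on the chromosome of *Atf4*, 25 Mb away. It was the lowest of the 10, with 10 to 125 counts per library. Its wildtype libraries stood at 3.21, 1.23, 2.10, 3.67 and 13.4 CPM and its *Atf4* null libraries at 1.99, 3.36, 6.69 and 6.41 CPM. The single high value was in wildtype replicate 5, the library with the raised mesenchyme and muscle genes. The log2 fold change was -0.04 (SE 0.65, interval -1.45 to 1.36, adjusted p = 0.982, edgeR quasi-likelihood), the widest interval of the 10. Without that library it was 0.85, with adjusted p = 0.449 in the same edgeR test, and it also turned above 0 without null replicate 1 (0.20), without null replicate 2 (0.07) and with sex as a covariate (0.01), so no direction can be given.

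**Figure D2:**
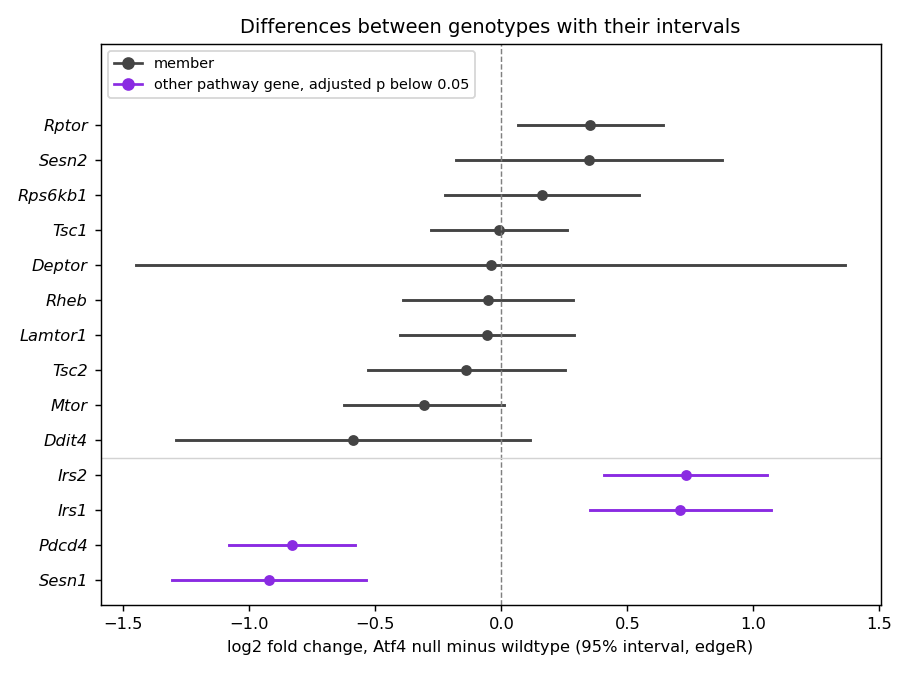
Log2 fold change (*Atf4* null minus wildtype, horizontal axis) with its 95% interval from edgeR for the 10 genes (dark, upper rows) and for the 4 other pathway genes with an adjusted p below 0.05 (purple, lower rows). Of the 10, the interval of *Rptor* alone leaves out 0, and that of *Deptor* is the widest, from -1.45 to 1.36.

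Of the kinase complex itself, *Mtor* (ENSMUSG00000028991, chr4:148533015-148642141, plus strand) encodes the catalytic subunit shared with mTORC2. Its libraries stood at 330, 286, 270, 323 and 212 CPM in wildtype and at 199, 225, 213 and 281 CPM in the *Atf4* null lens. Of the nulls, 3 lay below 4 of the wildtype libraries, with null replicate 4 among the wildtypes and wildtype replicate 5 among the nulls. The means were 284 ± 47.5 CPM (SD, n = 5) and 230 ± 36.0 CPM (SD, n = 4), with a log2 fold change of -0.31 (SE 0.15, interval -0.63 to 0.01, adjusted p = 0.275, edgeR quasi-likelihood) and an exact permutation p = 0.111. Without wildtype replicate 5 the log2 fold change was -0.39 and the adjusted p 0.0762 in the same test. The lowest library for *Mtor* in each genotype, wildtype replicate 5 and null replicate 1, was also the lowest of its genotype for the lens fiber list, at 31540 and 23800 CPM, and the part of this in the result was not tested.

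*Rptor* (ENSMUSG00000025583, chr11:119493731-119790402, plus strand) encodes Raptor, the subunit that defines mTORC1 and recruits its substrates. Wildtype libraries stood at 141, 135, 101, 113 and 117 CPM and *Atf4* null libraries at 140, 135, 158 and 186 CPM. Null replicates 3 and 4 were above every wildtype library, and null replicates 1 and 2 were level with the 2 highest of them. The means were 121 ± 16.6 CPM (SD, n = 5) and 155 ± 23.2 CPM (SD, n = 4), a fold of 1.28 with an interval of 1.05 to 1.56. The log2 fold change of 0.35 (SE 0.13) had p = 0.0201 before adjustment and 0.154 after it in edgeR's quasi-likelihood test, and p = 0.0714 in the exact permutation test, where 0.0079 is the smallest p possible. Without null replicate 4 it was 0.25, with an adjusted p of 0.324. With library size in place of TMM factors it was 0.47, with an adjusted p of 0.0287.

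Since *Rptor* and *Mtor* had point estimates of opposite sign, their ratio of FPKM (CPM per kilobase of summed exons) was taken within each library, a choice made after their values were seen. It was 0.333, 0.368, 0.290, 0.272 and 0.430 in wildtype replicates 1 to 5 and 0.546, 0.469, 0.578 and 0.516 in *Atf4* null replicates 1 to 4. All 4 null libraries lay above all 5 wildtype libraries, of which wildtype replicate 5 was the nearest. Scaling between libraries does not enter this ratio, and it was not tested because of how it was chosen. The ratio of *Tsc1* to *Tsc2*, the other pair of partners, ran from 0.167 to 0.228 in wildtype and from 0.161 to 0.285 in the *Atf4* null lens, where the groups overlapped.

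**Figure D3:**
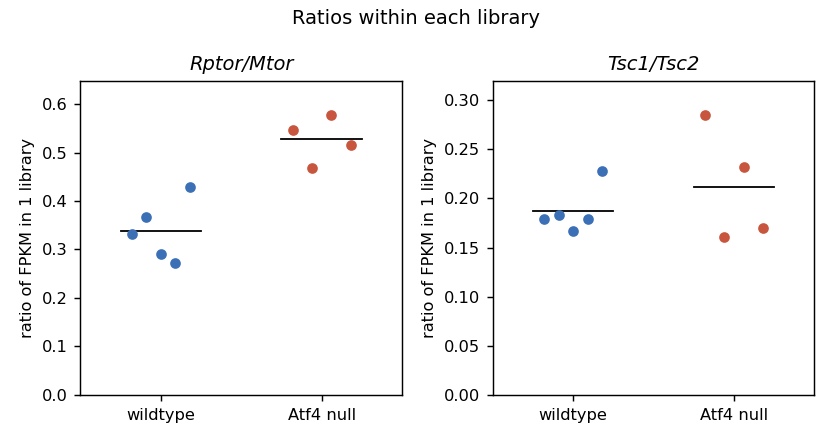
Ratio of FPKM within each library (vertical axis, from 0, no unit) for *Rptor* over *Mtor* and *Tsc1* over *Tsc2*, with wildtype in blue (n = 5), *Atf4* null in red (n = 4) and the mean as a line. For *Rptor* over *Mtor* the null libraries lie between 0.469 and 0.578, above the wildtype libraries at 0.272 to 0.430.

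Upstream of the kinase, none of the genes for the TSC complex, Rheb and the Ragulator anchor passed the test. *Tsc1* (ENSMUSG00000026812, chr2:28531061-28581179, plus strand) encodes hamartin, which stabilises the complex. It was the most even of the 10 in wildtype lenses, at 73.1 to 89.5 CPM with a coefficient of variation of 7.70%, and ran from 64.2 to 92.2 CPM in the *Atf4* null lens. Its means of 79.7 ± 6.14 CPM (SD, n = 5) and 79.2 ± 11.5 CPM (SD, n = 4) gave a fold of 0.993, with an interval of 0.823 to 1.20 (adjusted p = 0.979, edgeR quasi-likelihood).

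*Tsc2* (ENSMUSG00000002496, chr17:24814783-24852192, minus strand) encodes tuberin, the part of the complex that acts on Rheb. Its wildtype libraries stood at 357, 316, 338, 305 and 229 CPM and its *Atf4* null libraries at 200, 285, 249 and 389 CPM. As with *Mtor*, wildtype replicate 5 and null replicate 1 were the lowest of their genotypes, and null replicate 4 was the highest of all. The log2 fold change was -0.14 (SE 0.18, interval -0.53 to 0.25, adjusted p = 0.751, edgeR quasi-likelihood). Without null replicate 4 it was -0.34 (adjusted p = 0.265, edgeR quasi-likelihood), and without null replicate 1 it was -0.00. Without wildtype replicate 5 it was -0.22 (adjusted p = 0.492 in the same test). *Tsc2* overlaps *Pkd1* on the opposite strand, a gene with 11789 counts over the 9 libraries against 21944 for *Tsc2*, and the strand setting of the counting is not given in the sources used here, so reads of the pair may not be fully separated.

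*Rheb* (ENSMUSG00000028945, chr5:25007821-25047622, minus strand), the activating GTPase, ran from 29.9 to 39.7 CPM in wildtype and from 29.7 to 35.4 CPM in *Atf4* null libraries. Its log2 fold change was -0.05 with an interval of -0.39 to 0.28 (adjusted p = 0.903, edgeR quasi-likelihood). *Lamtor1* (ENSMUSG00000030842, chr7:101555111-101575882, plus strand) encodes the Ragulator subunit that anchors the scaffold in the lysosomal membrane. It ran from 27.2 to 35.9 CPM and from 25.4 to 32.4 CPM, and its log2 fold change was -0.06 with an interval of -0.40 to 0.29 (adjusted p = 0.901, edgeR quasi-likelihood). For these genes and *Tsc1*, the sign of the fold change turned with the scaling or with single libraries left out, and as folds their intervals run from 0.756 at the lowest to 1.22 at the highest.

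*Rps6kb1* (ENSMUSG00000020516, chr11:86360804-86435982, minus strand) encodes S6K1, the kinase that mTORC1 phosphorylates to raise translation. It stood at 31.2, 35.4, 50.5, 30.9 and 44.3 CPM in wildtype and at 46.7, 43.6, 45.2 and 36.7 CPM in the *Atf4* null lens. The wildtype libraries enclosed all of the nulls, and the log2 fold change ran from 0.09 to 0.28 with 1 library left out. With all libraries it was 0.16 (SE 0.18, interval -0.22 to 0.55, adjusted p = 0.695, edgeR quasi-likelihood). *Rps6kb1* overlaps *Rnft1* and *Tubd1* on the opposite strand, which had 608 and 259 counts in all against 3093.

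Compared per length, the 10 genes spanned a wide range of levels in the wildtype lens. The length takes all annotated exons of a gene together, from 2715 bases for *Ddit4* to 18871 for *Rps6kb1*. The levels and their order depend on this choice. *Tsc2* at 29.9 ± 4.73 FPKM and *Mtor* at 27.1 ± 4.53 FPKM (SD, n = 5) were highest. *Lamtor1* at 9.72 ± 1.03, *Rptor* at 9.003 ± 1.23 and *Ddit4* at 7.21 ± 2.00 FPKM came next. *Tsc1* at 5.51 ± 0.424, *Rheb* at 4.35 ± 0.548 and *Sesn2* at 4.18 ± 1.34 FPKM followed. *Rps6kb1* at 2.04 ± 0.458 and *Deptor* at 0.532 ± 0.556 FPKM were lowest. Neighbours in this order overlapped between libraries except *Mtor* and *Lamtor1*, *Tsc1* and *Rheb*, and *Rps6kb1* and *Deptor*. The median of all genes tested was 3.15 FPKM over the 9 libraries, so all of the 10 but *Rps6kb1* and *Deptor* lay above it. The spread between wildtype lenses was also uneven. The SD was 32.1% of the mean for *Sesn2*, 27.7% for *Ddit4* and 105% for *Deptor*, and 7.70% to 22.5% for the other 7 genes. Without wildtype replicate 5 it was 43.0% for *Deptor*, and for *Mtor* and *Tsc2* it went from 16.7% to 9.48% and from 15.8% to 7.08%.

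The genes whose levels ran most closely with the 3 inhibitors across the 9 libraries were named by Pearson's r of log2 CPM, as a description. For *Sesn2* they were *Gm47447* (r = 0.94), *Rcc1* (0.94) and *Ccdc96* (0.91). For *Ddit4* they were *Fxyd5* (0.95), *Fam110d* (0.93) and *Tacc3* (0.92). For *Deptor* they were *Sppl3* (0.94), *Rarg* (0.94) and *Cd44* (0.92), and without wildtype replicate 5 these were 0.90, 0.88 and 0.85. They are the highest of 14903 values computed for each gene over 9 libraries that share genotype and composition.

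Among the wider pathway, 7 lists written from general knowledge held 93 genes, of which 92 were matched by symbol and 88 tested. By edgeR's quasi-likelihood test 4 of the 88 (4.55%) were called, against the 5.9% of all genes. *Irs1* and *Irs2* rose, and *Sesn1* and *Pdcd4* fell, and edgeR's exactTest and DESeq2 called the same 4 genes. At an unadjusted p below 0.05 there were 16, against 19.6% of all genes, and 8 had genotypes that did not overlap (9.09%), against 10.2%. The log2 fold changes of the 88 split into 48 above and 40 below 0, with a median of 0.03.

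**Figure D4:**
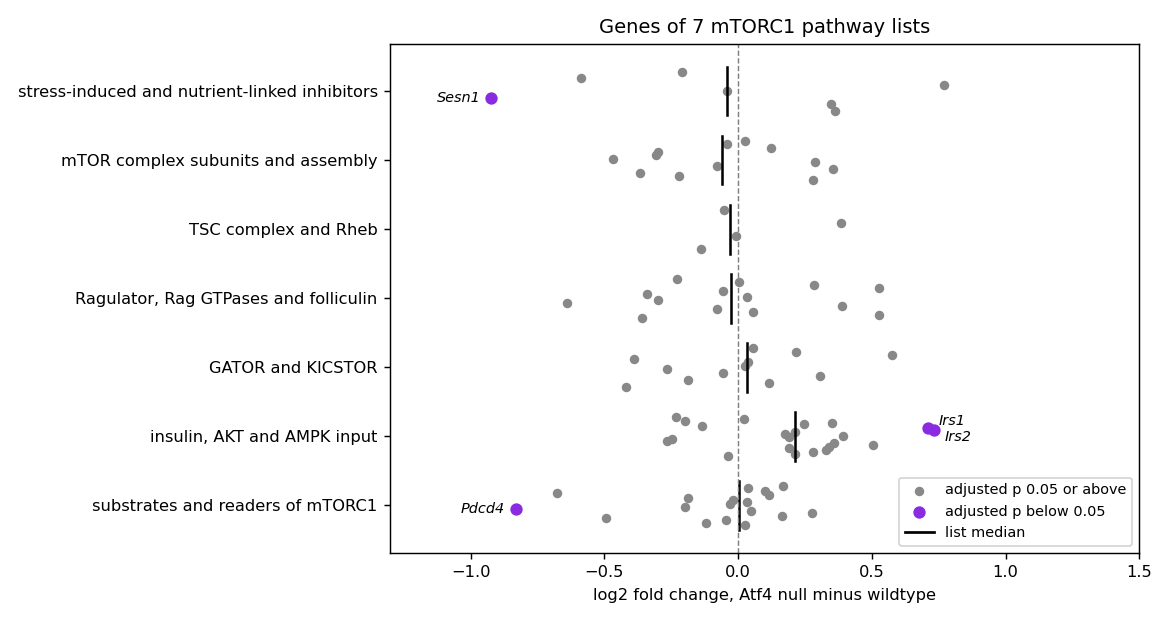
Log2 fold change (*Atf4* null minus wildtype, horizontal axis) of each tested gene in the 7 lists (rows), with genes of an adjusted p below 0.05 in purple and named, others in grey, and the list median as a black bar. The medians lie between -0.06 and 0.03 except for the insulin, AKT and AMPK input list, at 0.21.

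The list of stress-induced and nutrient-linked inhibitors had 7 tested genes and 1 call (14.3%, against 5.9% of all genes), *Sesn1*. *Sesn1* (ENSMUSG00000038332, chr10:41685931-41784423, plus strand) encodes Sestrin1, a relative of Sestrin2 known as a p53 target. It stood at 44.8, 38.5, 39.5, 39.1 and 35.4 CPM in wildtype and at 25.7, 16.9, 17.7 and 23.0 CPM in the *Atf4* null lens, with every null library below every wildtype one. The fold was 0.528, with an interval of 0.404 to 0.689 (log2 fold change -0.92, SE 0.18, adjusted p = 0.00786, edgeR quasi-likelihood, exact permutation p = 0.0079). The sestrins did not move as 1 group in their point estimates, since *Sesn3*, the most abundant of the list at a mean of 20.8 FPKM, stood at 323 ± 37.4 CPM (SD, n = 5) and 415 ± 107 CPM (SD, n = 4), with a log2 fold change of 0.36 and adjusted p = 0.226 in edgeR's quasi-likelihood test. Without null replicate 4 the log2 fold change of *Sesn3* was 0.17, with adjusted p = 0.538 in the same test. The difference between the sestrins was not tested. *Sesn1* overlaps *Cep57l1* on the opposite strand, which had 736 counts in all against 2339. Of the inhibitors that were too low to test, *Trib3* had 3 to 34 counts in *Atf4* null libraries and 31, 0, 19, 0 and 0 in wildtype replicates 1 to 5, and *Castor1* had 2 to 41 and 1 to 48 counts.

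The mTOR complex subunits and assembly factors (12 tested), the TSC complex and Rheb (4), Ragulator with the Rag GTPases and folliculin (14) and GATOR with KICSTOR (12) gave no call, against 5.9% of all genes. Their medians were -0.06, -0.03, -0.03 and 0.03. At an unadjusted p below 0.05 these 4 lists held 1, 0, 3 and 0 genes by the same edgeR test, against 19.6% of all genes. No gene of them had genotypes that did not overlap, against 10.2% of all genes. Without wildtype replicate 5, *Fnip2*, which encodes a partner of folliculin, was called by that test, with a log2 fold change of 0.62 and an adjusted p of 0.0469, against 0.53 and 0.119 with all libraries. Their most abundant genes were *Mtor*, *Tsc2*, *Rraga* and *Sec13*. *Rraga*, which encodes the GTPase RagA, stood at a mean of 38.3 FPKM and had a log2 fold change of 0.39 (SE 0.17, adjusted p = 0.214, edgeR quasi-likelihood). *Sec13*, a GATOR2 subunit also found in vesicle coats and the nuclear pore, stood at 11.5 FPKM with a log2 fold change of -0.06 (SE 0.15, adjusted p = 0.894 in that test).

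The insulin, AKT and AMPK input list was where the median lay farthest from 0. Of its 22 tested genes, 16 had a log2 fold change above 0 and 6 below, and 6 (27.3%) had genotypes that did not overlap, against 10.2% of all genes. Among them were *Irs1*, *Irs2*, *Igf1r* and *Cab39*, which were higher in every null than in every wildtype library, and *Akt1*, which was lower. *Irs1* and *Irs2*, the adaptors that link the insulin and IGF1 receptors to PI3 kinase, were the only 2 called by edgeR's quasi-likelihood test (9.09%, against 5.9% of all genes). At an unadjusted p below 0.05 in that test there were 6 of the 22, against 19.6% of all genes. The adjusted p of *Igf1r*, *Cab39* and *Akt1* in that test lay between 0.190 and 0.238, with log2 fold changes of 0.25, 0.35 and -0.23.

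*Irs1* (ENSMUSG00000055980, chr1:82210822-82269338, minus strand), the most abundant gene of the list at 44.3 FPKM, stood at 355, 338, 355, 302 and 262 CPM in wildtype and at 374, 532, 495 and 710 CPM in the *Atf4* null lens. Null replicate 1 lay just above the highest wildtype library and null replicate 4 far above it. The fold was 1.64, with an interval of 1.28 to 2.10 (log2 fold change 0.71, SE 0.17, adjusted p = 0.0229, edgeR quasi-likelihood). The call was lost without null replicate 2, 3 or 4 or wildtype replicate 2 or 4, with adjusted p from 0.05 to 0.0701 in the same test and log2 fold changes from 0.53 to 0.74.

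*Irs2* (ENSMUSG00000038894, chr8:11034681-11059499, minus strand) stood at 63.8, 77.4, 57.2, 61.1 and 67.6 CPM in wildtype and at 94.3, 87.1, 113 and 140 CPM in the *Atf4* null lens. The lowest null library was above the highest wildtype one. The fold was 1.66, with an interval of 1.33 to 2.08 (log2 fold change 0.73, SE 0.15, adjusted p = 0.0108, edgeR quasi-likelihood, exact permutation p = 0.0079).

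**Figure D5:**
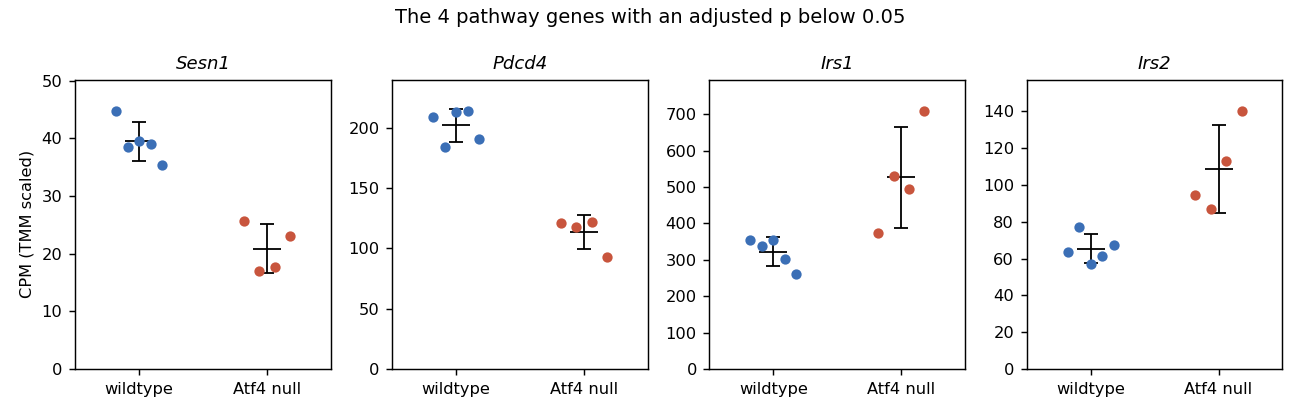
CPM of *Sesn1*, *Pdcd4*, *Irs1* and *Irs2* in each library (vertical axis, from 0), wildtype in blue (n = 5) and *Atf4* null in red (n = 4), with the mean and SD in black. In each of the 4 genes the genotypes do not overlap, and null replicate 4 is the highest library for *Irs1* at 710 CPM and the lowest for *Pdcd4* at 92.7 CPM.

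The substrates and readers of mTORC1 had 18 tested genes, with 9 above and 9 below 0, a median of 0.00 and 1 call (5.56%, against 5.9% of all genes). *Pdcd4* (ENSMUSG00000024975, chr19:53880662-53918291, plus strand) encodes an inhibitor of the translation factor eIF4A that S6K1 marks for degradation. It stood at 209, 184, 213, 214 and 191 CPM in wildtype and at 121, 118, 122 and 92.7 CPM in the *Atf4* null lens, well apart. *Pdcd4* overlaps *Bbip1* on the opposite strand, which had 1290 counts in all against 12251. The fold was 0.562, with an interval of 0.473 to 0.668 (log2 fold change -0.83, SE 0.12, adjusted p = 0.000973, edgeR quasi-likelihood). *Rps6*, the ribosomal protein that S6K1 phosphorylates and the most abundant of the list at 89.5 FPKM, had a log2 fold change of 0.28 (SE 0.12, adjusted p = 0.239 in that test), and its level is uncertain because reads shared with its processed pseudogenes were not counted.

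*Sesn1*, *Irs2* and *Pdcd4* kept their calls in all 18 alternatives tried and when wildtype replicate 5 was left out, and *Irs1* kept its call in 12 of the 18. The 10 genes had no call in 17 of the 18. Without wildtype replicate 5 the edgeR test again called 0 of the 10, with *Mtor* and *Rptor* at an unadjusted p below 0.05, and 5 pathway list genes, the 4 and *Fnip2*. Calls among all genes rose as well in that setting, to 1207 of 14493, from 880 of 14903 with all libraries.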

How the data were processed

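RNA of single lens pairs was sequenced with a stranded total RNA kit, and the deposited files hold whole-number counts per gene made by the authors, without normalization. As the methods describe, the authors trimmed reads with Trim Galore, removed ribosomal reads, aligned the rest with HISAT2 to GRCm39 and assigned them with HTSeq. Reads over more than 1 gene or with more than 1 alignment were not counted, and the strand setting is not given in the sources used here. The 5 summary entries that name no gene held 44.6% to 47.7% of the reads and were left out. Symbols and positions came from GENCODE vM39, which uses the same build, for 54749 identifiers. *Bmt2* was not matched by symbol.

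Counts were compared by genotype with edgeR 4.0.16 in R 4.3.3 (filterByExpr, TMM factors, estimateDisp, glmQLFit, glmQLFTest) on all 9 libraries without a covariate, with Benjamini-Hochberg adjustment over 14903 genes and a threshold of 0.05. Intervals of 95% used the total degrees of freedom of that fit, which add edgeR's prior ones to the residual ones. Exact two-sided permutation tests used mean log2 CPM with a prior count of 2. FPKM are CPM per kilobase of summed exons, taken over all exons of a gene in GENCODE vM39, while the counts were made on Ensembl release 104. The model was tested on simulated data. P-values measure the spread between embryos. No 2 libraries agreed within sampling noise (lowest chi-square per degree of freedom 6.46). Wildtype replicate numbers follow the sample titles and are uncertain, because the titles name another wildtype library than the count files do, while the genotype is not affected.

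The 10 genes and the lists were chosen with earlier results of these data known. The genes named are the 10, each list's called genes and its most abundant gene, and the 3 genes most correlated with *Sesn2*, *Ddit4* and *Deptor*. Other genes with non-overlapping genotypes and the low inhibitors were named after their values were seen. The values of 1 list gene are not reported here. Alternatives were DESeq2 1.42.0, exactTest, library size in place of TMM, TMM without crystallin genes, no filter, a filter of 10 counts in each library, a robust fit, embryo sex in the model, a replicate block and each library left out in turn. Sequences were read from GRCm39 and the RefSeq promoter table with Python 3.11.15.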

Additional observations from a re-analysis of the deposited data

Results flagged for a closer look

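Among the 10 genes and the pathway genes named, 5 genes had a library far from the rest of its group by Dixon's criterion, which chance meets in about 1 of 20 groups. Both groups of every gene were examined, so some such libraries would arise by chance. *Deptor* stood at 13.4 CPM in wildtype replicate 5, against 1.23 to 3.67 CPM in the other 4 wildtype libraries, and without that library its log2 fold change went from -0.04 to 0.85 (adjusted p = 0.449, edgeR quasi-likelihood). The mesenchyme genes of that library summed to 14950 CPM, against 130.6 to 190 CPM in the other wildtype libraries, and their part in the value of *Deptor* was not tested. *Pdcd4* stood at 92.7 CPM in *Atf4* null replicate 4, against 118 to 122 CPM in the other 3 null libraries, and without that library its log2 fold change was -0.75 (adjusted p = 0.00122, edgeR quasi-likelihood). *Cab39* stood at 180.7 CPM in *Atf4* null replicate 4, against 112.1 to 116.0 CPM in the other null libraries. *Trib3* stood at 4.95 CPM (34 counts) in the same library, against 0.329 to 1.08 CPM (3 to 10 counts). *Castor1* stood at 5.14 CPM (48 counts) in wildtype replicate 5, against 0.128 to 0.759 CPM (1 to 6 counts) in the other wildtype libraries.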

How the results depend on the processing

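With DESeq2, 1397 genes were called in place of 880, and with 1 library left out between 527 (without *Atf4* null replicate 2) and 1207 (without wildtype replicate 5), with 562 without null replicate 3, 570 without wildtype replicate 2 and 562 without wildtype replicate 3. Library size in place of TMM factors called 1229 of 14903 genes in place of 880, with 1 of the 10 genes in place of 0 and 10 pathway list genes in place of 4. It raised the share of all calls that were higher in the *Atf4* null lens from 37.8% to 64.3%. Among the genes named, log2 fold changes of *Tsc1* (0.11), *Rheb* (0.07), *Lamtor1* (0.06) and *Sec13* (0.06) turned above 0 under library size. Leaving out 1 library gave -0.29 to 0.85 for *Deptor*, -0.09 to 0.08 for *Tsc1*, -0.10 to 0.02 for *Lamtor1* and -0.15 to 0.03 for *Sec13*. Sex as a covariate gave 0.01 for *Deptor*. The cause of these changes was not tested. The replicate block called 852 genes, 0 of the 10 and 3 pathway list genes, without *Irs1* (log2 fold change 0.61, adjusted p = 0.0618, edgeR quasi-likelihood), and gave 0.81 for *Deptor*. Samples with the same number correlated at -0.13, -0.02, -0.02 and 0.01, and not every sample did so best with its own number. Because the wildtype numbers are uncertain, neither these values nor the block can show which embryos shared a litter. *Deptor* had 10 to 125 counts per library, the fewest of the 10 genes, and all libraries differed by more than sampling noise.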
